A study of Mus musculus with 2 samples.

Results

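MHC class I molecules and the machinery that loads them with peptide are described here through 10 genes in mouse CMT167R cells. They are 5 heavy chain genes (H2-K1, H2-D1, H2-Q4, H2-T22 and H2-T23), the light chain gene B2m, the loading factor genes Tapbp and Tapbpl, the peptide-trimming enzyme gene Erap1 and the transactivator gene Nlrc5. The genes were picked by symbol from 54532 genes in the deposited count table, where each of the 10 symbols stands at 1 gene. CMT167 cells come from a mouse lung carcinoma. The labels call the CMT167R derivative resistant to anti-PD1, an antibody against an inhibitory receptor of T cells. PKCi was the library from CMT167R cells treated for 24 h with an agent at 50 nM whose only name in the labels is PKCi, and CON was the library from CMT167R cells left without it. Each group holds 1 library, so no difference below has a replicate check and no p-value is given.

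A class I molecule is a heavy chain paired with beta-2 microglobulin and holding a short peptide from inside the cell, which it shows to CD8 T cells and natural killer cells. The proteasome and cytosolic peptidases make the peptides, the TAP transporter carries them into the endoplasmic reticulum, and tapasin with calreticulin and ERp57 helps to place them in the heavy chain. Class I genes are switched on together by NLRC5 with the RFX factors, by NF-kB and by interferon-induced factors, and tumour cells often lower them.

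The PKCi library held 16071153 gene counts and the CON library 16090186. Levels are given as CPM, the count divided by its library total times 1000000. In either library 16.1 counts made 1 CPM, and a count of 0 allowed up to 0.187 CPM in PKCi and 0.186 CPM in CON (3 counts of the total). Folds are plain ratios of CPM, PKCi over CON, with exact conditional binomial 95% intervals that cover counting error only. A gene was called at 2-fold or more on the log2(CPM + 1) scale, which understates the change of low genes. Of 12 lung epithelium markers 5 reached 1 CPM, and their list summed to 2028 CPM in PKCi and 1642 CPM in CON, nearly all from the keratin genes Krt8 (1182 CPM in PKCi and 933 CPM in CON), Krt18 (765 CPM in PKCi and 643 CPM in CON) and Krt19. The general epithelial markers Epcam (6.28 CPM in PKCi and 3.48 CPM in CON) and Cdh1 (3.36 CPM in PKCi and 2.92 CPM in CON) were low, Cldn4 had 3 counts in PKCi and 2 in CON, and Nkx2-1, Sftpc, Sftpb and Scgb1a1, of the lung lineage, had no count in either library. Another protocol in the labels speaks of retinas, but 9 of 12 retina markers had no count in either library, and the 12 summed to 1 count in PKCi and 4 counts in CON. Of 22 leukocyte markers 14 had no count in either library, Ptprc (CD45) among them. Their summed level was 127 CPM in PKCi and 71.6 CPM in CON, of which Cd14 (101 CPM in PKCi and 56.9 CPM in CON) and Mrc1 (18.8 CPM in PKCi and 3.42 CPM in CON) made up most. The other 20 markers summed to 7.40 CPM in PKCi and 11.3 CPM in CON. The 8 fibroblast markers summed to 38.3 CPM in PKCi and 101 CPM in CON. Most of this was Pdgfrb, at 24.4 CPM in PKCi and 88.4 CPM in CON. Among the 5 fibroblast markers that reached 1 CPM, Pdgfrb and Col1a1 were lower in PKCi and the other 3 were higher. Pdgfra (97 counts in PKCi and 43 in CON) and Dcn (17 counts in PKCi and 1 in CON) were among those 3. The 7 endothelial markers summed to 1.24 CPM in PKCi and 0.621 CPM in CON. The part of these markers in the values below was not tested, and in bulk RNA a change in the number of cells of a kind and a change in RNA per cell cannot be told apart.

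All 10 genes reached 1 CPM in a library, and all 10 had a log2 ratio above 0. Of the 10, H2-T23, Tapbp, Tapbpl and Nlrc5 were at least 2-fold higher in the PKCi library, and 0 were at least 2-fold lower. Nlrc5 could be counted only because it reached 1 CPM in the PKCi library (2.68 CPM, against 0.435 CPM in CON). Over the 12273 measured genes, those reaching 1 CPM in PKCi or CON, 6.53% were called higher and 5.13% lower. These shares are the background for each count of called genes below at the same settings. The median log2 ratio of the 10 was 0.68, beside a median of −0.01 over all 12273 genes. The genes were chosen with earlier results of these data known, so the count is a description. H2-T23, Tapbp, Tapbpl and Nlrc5 had the highest log2 ratios (1.36 to 2.13), B2m followed at 0.83, Erap1 and H2-D1 stood at 0.53 and 0.50, and H2-T22, H2-Q4 and H2-K1 were the lowest (0.08 to 0.26).

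**Figure D1:**
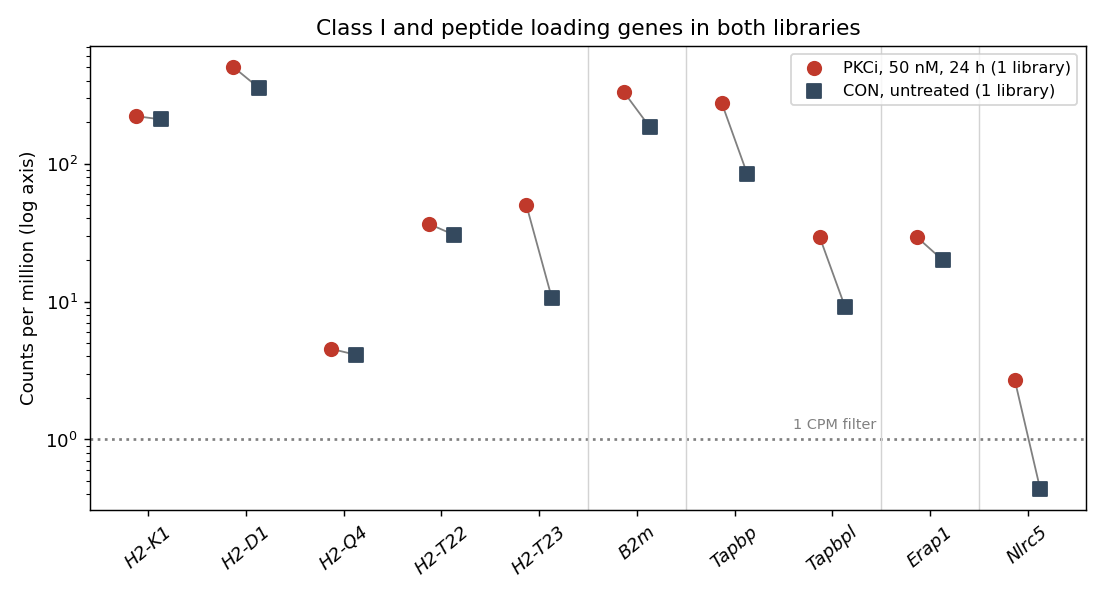
Levels in CPM of the 10 genes on a log axis, with the PKCi library as red circles and the CON library as dark squares, 1 library each, grouped from left to right as heavy chains, light chain, loading, trimming and transactivator. H2-T23, Tapbp, Tapbpl and Nlrc5 show the steepest lines, while H2-K1, at 221 CPM in PKCi and 209 CPM in CON, is almost level.

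Among the heavy chains the classical genes H2-D1 and H2-K1, which present peptides to CD8 T cells, were the most abundant. H2-D1 had 8046 counts (501 CPM) in PKCi and 5689 counts (354 CPM) in CON, 1.42-fold higher in PKCi (95% interval 1.37 to 1.47). H2-K1 had 3544 counts (221 CPM) in PKCi and 3357 counts (209 CPM) in CON, a ratio of 1.06 (95% interval 1.01 to 1.11). The counting intervals of these ratios do not meet, but they do not cover the spread between libraries, which 1 library per group cannot show. H2-K1 ranked 5343 among the 12273 log2 ratios ordered from the highest, H2-D1 2474. On the GRCm38 coordinates of the deposited table, H2-K1 (ENSMUSG00000061232) lies at chr17:33996017-34000333 on the minus strand and H2-D1 (ENSMUSG00000073411) at chr17:35262730-35267499 on the plus strand.

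The non-classical heavy chain gene H2-T23 had the highest log2 ratio of the 10 genes, 2.13, at rank 104 of 12273. It encodes Qa-1, which presents leader peptides of other class I chains to the inhibitory receptor CD94/NKG2A on natural killer and CD8 T cells. H2-T23 had 800 counts (49.8 CPM) in PKCi and 171 counts (10.6 CPM) in CON, 4.68-fold higher in PKCi (95% interval 3.97 to 5.56). Its neighbour H2-T22, whose product is recognised by some gamma delta T cells, had 589 counts (36.6 CPM) in PKCi and 489 counts (30.4 CPM) in CON, 1.21-fold (95% interval 1.07 to 1.36). Although they are adjacent genes, H2-T23 (ENSMUSG00000067212) at chr17:36029773-36032855 and H2-T22 (ENSMUSG00000056116) at chr17:36037128-36042747, both on the minus strand, the counting intervals of their ratios do not meet. H2-Q4, a gene of the Qa region (ENSMUSG00000035929, chr17:35379617-35385290, plus strand), had 73 counts (4.54 CPM) in PKCi and 66 counts (4.10 CPM) in CON. With a ratio of 1.11 and a 95% interval of 0.783 to 1.57, no difference was detectable at this depth.

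The 5 heavy chains together had 13052 counts in PKCi and 9772 counts in CON, 1.34-fold higher in PKCi (95% interval 1.30 to 1.37), and their make-up shifted. H2-T23 took 6.13% of these counts in PKCi (exact 95% interval 5.72 to 6.55) and 1.75% in CON (1.50 to 2.03). H2-K1 took 27.2% in PKCi (26.4 to 27.9) and 34.4% in CON (33.4 to 35.3), and H2-D1 took 61.6% in PKCi (60.8 to 62.5) and 58.2% in CON (57.2 to 59.2). H2-K1 thus held a smaller share of the heavy chain counts in the PKCi library with nearly the same level, and H2-D1 and H2-T23 held larger ones.

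Heavy chain genes resemble each other, so reads could be split between them, and the program that assigned the reads is not given in the sources used here. In the longest protein-coding GENCODE M21 transcript of each gene, windows of 50 bases that also occur in a transcript of another gene made up 8.79% for H2-K1, 14.3% for H2-D1, 24.3% for H2-Q4, 28.8% for H2-T23 and 44.7% for H2-T22. H2-T22 shared most with H2-T10, which held 37.9% of its windows, and H2-T10 itself had 2 counts in PKCi and 0 in CON. At 150 bases, the read length the labels give, the shared windows made up 1.79% for H2-D1, 0.931% for H2-T22 and 0.831% for H2-T23, and 0% for H2-K1 and H2-Q4. Most windows of full read length were thus particular to 1 of these transcripts, and fewer of the short ones were.

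B2m encodes the light chain that heavy chains need in order to leave the endoplasmic reticulum stably folded. It was higher in the PKCi library by a larger ratio than the sum of the 5 heavy chains and each of these 5 but H2-T23. B2m (ENSMUSG00000060802, chr2:122147686-122153083, plus strand) had 5275 counts (328 CPM) in PKCi and 2969 counts (185 CPM) in CON, 1.78-fold higher in PKCi (95% interval 1.70 to 1.86), which stayed under 2-fold. Per gene length, in TPM from the deposited lengths, B2m stood at 1247 TPM in PKCi and 697 TPM in CON. The 5 heavy chains summed to 1007 TPM in PKCi and 751 TPM in CON. The level of B2m was therefore 1.24 times the heavy chain sum in PKCi and 0.928 times in CON. With the length of the longest protein-coding transcript in place of the deposited length, which counts retained introns, the ratio was 0.884 in PKCi and 0.663 in CON, so which of the sides is the larger depends on the lengths while the order of the libraries does not. On the deposited lengths H2-D1 led the heavy chains (634 TPM in PKCi and 445 TPM in CON), then H2-K1 (276 TPM in PKCi and 260 TPM in CON). H2-T23 (56.3 TPM in PKCi and 11.9 TPM in CON) stood above H2-T22 (35.1 TPM in PKCi and 28.9 TPM in CON) in the PKCi library and below it in the CON library. H2-Q4 was the lowest, at 5.71 TPM in PKCi and 5.13 TPM in CON.

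**Figure D2:**
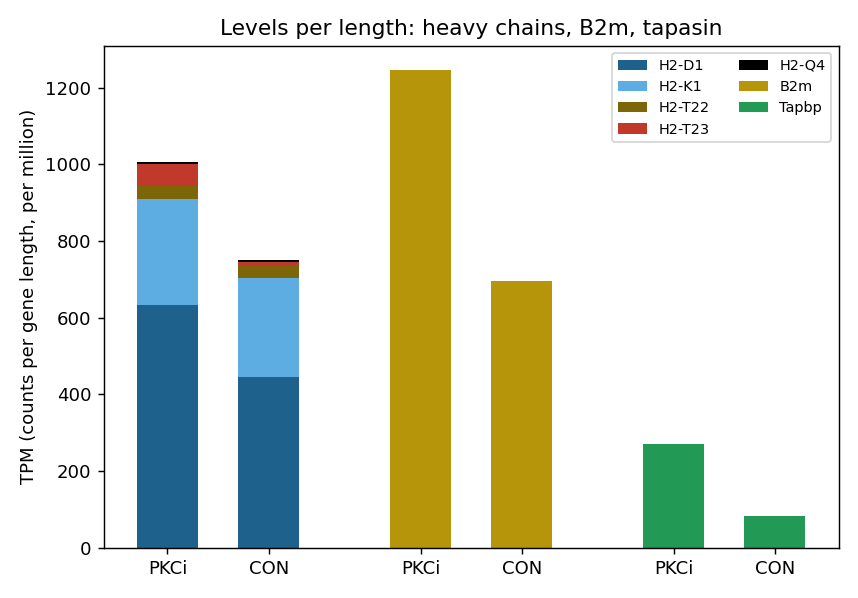
Levels per gene length (TPM) of the 5 heavy chains stacked on each other, of B2m and of Tapbp, with the PKCi library left of the CON library in each pair and 1 library per bar. The heavy chain stacks reach 1007 TPM in PKCi and 751 TPM in CON, with H2-T23 in red widening in PKCi, and B2m reaches 1247 TPM in PKCi and 697 TPM in CON.

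The start regions available for these genes were searched for some of the elements that textbooks give for class I control. The regions are shown for the heavy chain gene with the highest ratio, the classical pair and the light chain gene. No relation between these motifs and the ratios was tested. Each sequence is the RefSeq window of 250 bases before to 50 bases after a transcript start on GRCm38.p6, read 5′ to 3′ along the gene. Capitals mark every match, on either strand, to a kappa B motif (GGGNNTTCC, bound by NF-kB), an interferon-stimulated response element or ISRE (TTTC, any 2 bases, TTTC), CCAAT (bound by NF-Y), the core of a cyclic AMP response element (TGACGT), an AP-1 site (TGANTCA) and a GAS element (TTCNNNGAA, an interferon gamma response motif). The windows are chr17:36032652-36032951 (minus strand) for H2-T23, chr17:35262844-35263143 (plus strand) for H2-D1, chr17:34000284-34000583 (minus strand) for H2-K1 and chr2:122147437-122147736 (plus strand) for B2m.
H2-T23: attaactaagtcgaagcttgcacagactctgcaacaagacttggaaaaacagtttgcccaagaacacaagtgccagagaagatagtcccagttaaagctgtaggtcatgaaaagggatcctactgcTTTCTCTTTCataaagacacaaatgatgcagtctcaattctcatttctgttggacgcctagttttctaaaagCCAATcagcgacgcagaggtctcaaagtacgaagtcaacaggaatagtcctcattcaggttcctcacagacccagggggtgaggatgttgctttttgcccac
H2-D1: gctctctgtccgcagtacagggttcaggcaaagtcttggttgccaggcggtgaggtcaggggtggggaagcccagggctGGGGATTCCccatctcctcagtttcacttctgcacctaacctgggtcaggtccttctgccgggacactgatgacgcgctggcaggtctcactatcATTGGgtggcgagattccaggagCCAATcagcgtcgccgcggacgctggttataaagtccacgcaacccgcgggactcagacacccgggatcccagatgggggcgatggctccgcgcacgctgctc
H2-K1: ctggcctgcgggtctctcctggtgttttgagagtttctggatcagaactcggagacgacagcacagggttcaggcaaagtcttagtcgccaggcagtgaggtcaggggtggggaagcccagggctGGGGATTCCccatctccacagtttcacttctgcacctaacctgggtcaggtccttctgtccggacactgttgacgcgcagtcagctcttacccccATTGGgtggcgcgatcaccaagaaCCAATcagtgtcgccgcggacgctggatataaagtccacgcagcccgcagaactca
B2m: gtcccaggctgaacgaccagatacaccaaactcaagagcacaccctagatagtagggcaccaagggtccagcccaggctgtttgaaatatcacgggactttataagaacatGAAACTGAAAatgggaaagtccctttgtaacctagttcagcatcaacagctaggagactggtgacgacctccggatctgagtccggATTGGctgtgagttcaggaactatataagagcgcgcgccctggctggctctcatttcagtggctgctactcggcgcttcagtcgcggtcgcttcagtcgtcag

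Among the 10 genes, 8 had a window in the RefSeq table, Tapbpl and Nlrc5 being the exceptions. Only exact matches to these patterns were sought, so a window without a match may still hold a related site of another length or spelling. No pattern for the RFX factors was sought. The kappa B pattern was matched in H2-K1, H2-D1 and H2-Q4. The match was GGGGATTCC in H2-K1 (starting 125 bases before the transcript start) and in H2-D1 (171 bases before), and GGGATTTCC in H2-Q4. This pattern occurs in 5.82% of the 32851 windows of the table. The B2m window holds gggaaagtccc, which is not an exact match and stays in lower case. The ISRE pattern was matched exactly in H2-T23, H2-T22, B2m and Erap1, and in 3.44% of all windows. H2-T23 carries it as TTTCTCTTTC 124 bases before the start, and B2m as GAAACTGAAA, on the other strand, 139 bases before. The H2-K1, H2-D1 and H2-Q4 windows hold tttcacttct, which is near this pattern but not an exact match. CCAAT stood in all 8 windows but that of Erap1, and in 37.4% of all windows. The cyclic AMP response element core was found in H2-Q4 and H2-T22 (7.51% of all windows), and the AP-1 and GAS motifs in 0 of the 8 (7.81% and 8.30% of all windows). The RefSeq start of H2-T23 lies 154 bases from the deposited gene start, that of Erap1 285 bases, that of H2-D1 364 bases and that of Tapbp 3579 bases. These windows therefore need not be the starts used in these cells.

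The loading factor genes were higher in the PKCi library by close to the same ratio. Tapbp encodes tapasin, which bridges empty class I molecules to the TAP transporter and favours tightly bound peptides. Tapbp (ENSMUSG00000024308, chr17:33915899-33929288, plus strand) had 4396 counts (274 CPM) in PKCi and 1355 counts (84.2 CPM) in CON, 3.25-fold higher in PKCi (95% interval 3.06 to 3.45). Tapbpl encodes TAPBPR, a tapasin relative that edits peptides outside the TAP complex. Tapbpl (ENSMUSG00000038213, chr6:125223933-125231860, minus strand) had 475 counts (29.6 CPM) in PKCi and 148 counts (9.20 CPM) in CON, 3.21-fold higher in PKCi (95% interval 2.67 to 3.89). The log2 ratio of Tapbp, 1.69, ranked 208 of 12273 and that of Tapbpl, 1.58, ranked 246. Per length, tapasin stood at 0.269 times the heavy chain sum in PKCi and 0.110 times in CON. Tapbp shares 4.11% of its exonic bases with Zbtb22, a gene on the same strand with 51.5 CPM in PKCi and 39.6 CPM in CON, and Tapbpl shares none with Vamp1, the gene that overlaps its span on the other strand.

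The other factors of transport and loading, from a list of pathway genes, did not follow tapasin. Of the 9 listed genes outside the 10, 8 were measured, and 0 were called in either direction, with 7 below 0 and a median of −0.41. The transporter subunit genes were low in both libraries: Tap1, the unmeasured gene, had 16 counts in PKCi and 15 in CON, under 1 CPM in each, and Tap2 had 21 counts in PKCi and 20 in CON. With ratios of 1.07 for Tap1 (95% interval 0.494 to 2.32) and 1.05 for Tap2 (0.542 to 2.04), no difference could be seen at this depth. Calr, the lectin chaperone calreticulin, was at 1225 CPM in PKCi and 1880 CPM in CON, 1.53-fold lower in PKCi. Canx, calnexin, was at 769 CPM in PKCi and 1097 CPM in CON, and Pdia3, which encodes the tapasin partner ERp57, at 809 CPM in PKCi and 1053 CPM in CON. The glycan-processing genes that put heavy chains on and off these lectins were on the same side: Mogs, glucosidase I, was 1.87-fold lower in PKCi (74.9 CPM, against 140 CPM in CON), and Uggt1, which adds the glucose back, was 1.37-fold lower (227 CPM, against 310 CPM in CON). These chaperones and enzymes serve glycoproteins at large, and all 7 of them (Calr, Canx, Pdia3, Uggt1, Ganab, Prkcsh and Mogs) had log2 ratios between −0.90 and −0.29.

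**Figure D3:**
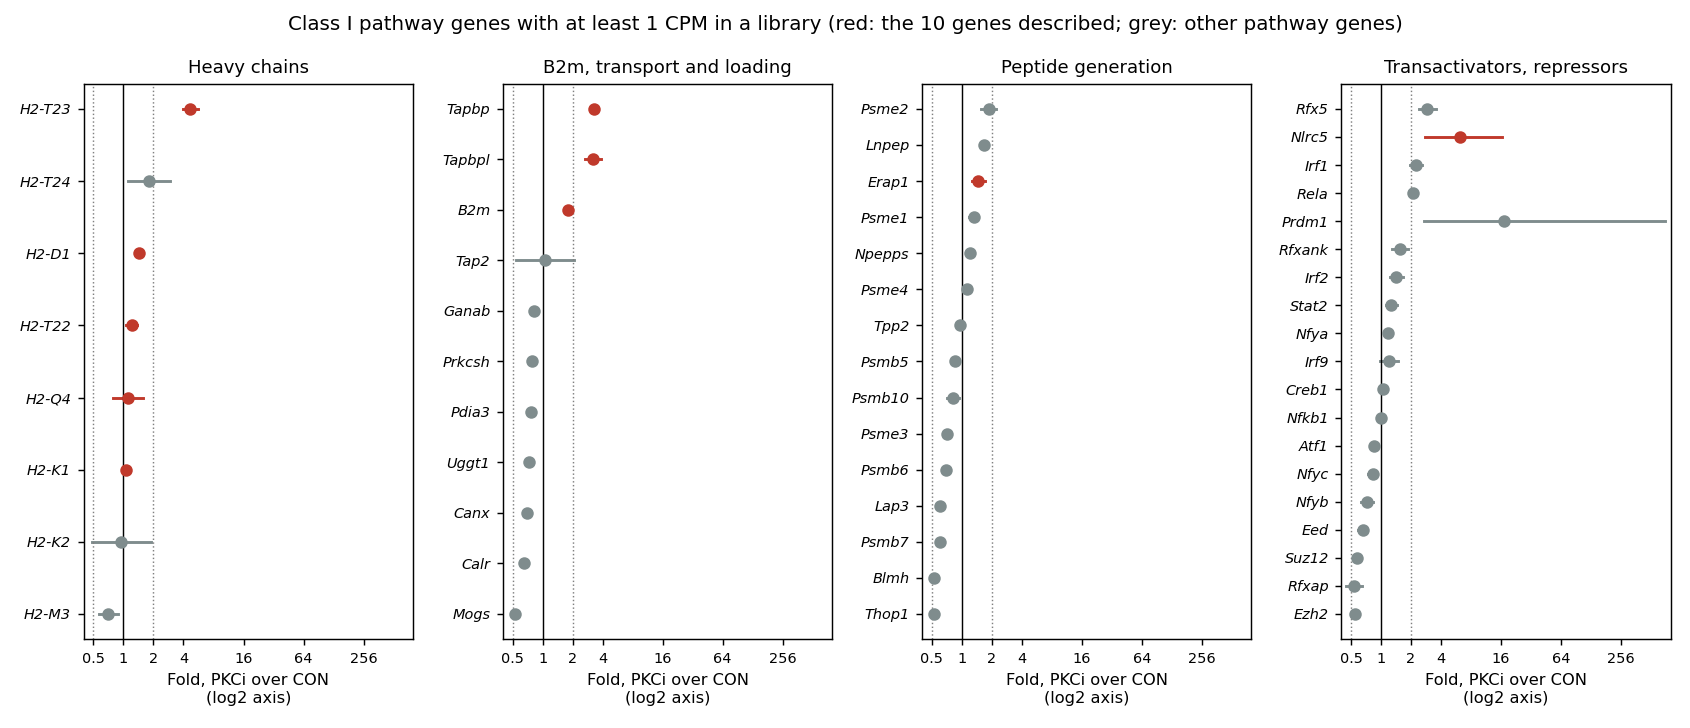
Fold of PKCi over CON on a log2 axis, with exact 95% counting intervals, for measured genes of 4 class I pathway lists, less 1 regulator that is not shown, 1 library per group, with the 10 described genes in red and other pathway genes in grey and dotted lines at 0.5 and 2. Tapbp and Tapbpl stand apart from the chaperones and glycan enzymes, which lie left of 1, and H2-T23 stands apart from the other heavy chains.

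Among genes of peptide supply none was called. Erap1 encodes the aminopeptidase that trims peptides inside the endoplasmic reticulum to the length class I molecules hold. Erap1 (ENSMUSG00000021583, chr13:74639568-74693201, plus strand) had 469 counts (29.2 CPM) in PKCi and 321 counts (20.0 CPM) in CON, 1.46-fold higher in PKCi (95% interval 1.27 to 1.69). Cast, the calpastatin gene on the other strand, overlaps 11.5% of the exonic bases of Erap1 and was at 218 CPM in PKCi and 110 CPM in CON (1.99-fold). Since the strand setting of the counting is not given in the sources used here, reads of Cast and Erap1 cannot be told apart over those bases. Of the 17 other listed genes of peptide generation, 14 were measured, 0 were called in either direction, and the median was −0.25 with 5 above 0. The immunoproteasome subunit genes that interferon normally induces were nearly silent: Psmb8 had 2 counts in PKCi and 0 in CON, and Psmb9 had 0 counts in both. Psmb10, the remaining subunit, was at 20.3 CPM in PKCi and 25.0 CPM in CON, and its constitutive counterpart Psmb7 at 73.7 CPM in PKCi and 123 CPM in CON. Among genes of the PA28 proteasome caps, Psme2 and Psme1 were on the other side of 1. Psme2 was at 23.4 CPM in PKCi and 12.7 CPM in CON (1.85-fold), and Psme1 at 56.1 CPM in PKCi and 42.6 CPM in CON (1.31-fold). Psme3, of the same family, was at 153 CPM in PKCi and 216 CPM in CON (1.41-fold lower). Lnpep, an endosomal aminopeptidase, was 1.68-fold higher in PKCi (226 CPM, against 135 CPM in CON). The cytosolic peptidase genes Thop1, whose product destroys many class I peptides, and Blmh were 1.90-fold and 1.89-fold lower in PKCi, at 65.0 CPM and 44.4 CPM in PKCi, against 123 CPM and 84.0 CPM in CON.

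Nlrc5, the transactivator that assembles on class I promoters, was low in both libraries. Nlrc5 (ENSMUSG00000074151, chr8:94434356-94527272, plus strand) had 43 counts (2.68 CPM) in PKCi and 7 counts (0.435 CPM) in CON, 6.15-fold higher in PKCi with a wide interval of 2.74 to 16.2. It passed the filter of 1 CPM only through the PKCi library, so a high value there was needed for it to be counted at all. Its log2 ratio of 1.36 was 0.50 with a pseudocount of 5 and 0.80 in TPM, neither of which was called, and with a filter of 5 CPM it was not measured. Of 20 other listed class I regulators, 19 were measured, with 3 at least 2-fold higher, 0 lower and a median of 0.07. Those 3 were Rfx5, Irf1 and Rela. Over all measured genes 6.53% were called higher and 5.13% lower. Rfx5, a subunit of the RFX complex with which NLRC5 acts, was at 27.7 CPM in PKCi and 9.51 CPM in CON (2.91-fold, 95% interval 2.42 to 3.52). The other RFX subunit genes parted ways, with Rfxank at 19.4 CPM in PKCi and 12.6 CPM in CON (1.53-fold) and Rfxap at 11.3 CPM in PKCi and 20.9 CPM in CON (1.86-fold lower). Irf1, an interferon-induced factor that binds ISRE elements, was at 44.1 CPM in PKCi and 19.7 CPM in CON (2.24-fold), and Rela, the p65 subunit of NF-kB, at 290 CPM in PKCi and 140 CPM in CON (2.07-fold, 95% interval 1.97 to 2.18). Prdm1, which encodes the transcriptional repressor Blimp-1, had 17 counts in PKCi and 1 in CON (17.0-fold, 95% interval 2.67 to 711). Like Nlrc5 it passed the filter only through the PKCi library, and its log2 ratio of 0.95 was not called. The genes of Polycomb repressive complex 2, which represses class I genes in some tumours, were lower in PKCi without reaching 2-fold: Ezh2 was at 65.3 CPM in PKCi and 119 CPM in CON, Suz12 at 146 CPM in PKCi and 258 CPM in CON, and Eed at 38.7 CPM in PKCi and 59.2 CPM in CON. Ezh2, Suz12 and Eed were picked after their values were seen. A link between any of these regulators and the class I ratios was not tested.

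The interferon gamma pathway is the best-known inducer of class I genes, and its receptor and signalling genes were expressed in both libraries. Ifngr2, a receptor subunit gene, was at 104 CPM in PKCi and 42.7 CPM in CON (2.44-fold, 95% interval 2.23 to 2.67), while the other subunit gene, Ifngr1, was at 22.2 CPM in PKCi and 20.4 CPM in CON (1.09-fold, 95% interval 0.933 to 1.27). Ifng itself had 1 count in PKCi and 0 in CON. Of 10 listed genes 9 were measured, 1 was called higher and 0 lower, with a median of 0.15. The shares over all measured genes were 6.53% higher and 5.13% lower. Jak2, the kinase of Ifngr2, was 1.74-fold higher in PKCi (56.2 CPM, against 32.3 CPM in CON). The feedback inhibitor genes Socs1 and Socs3 were 1.89-fold and 1.61-fold higher in PKCi. Ptpn2 and Pias1, other inhibitor genes on this list, had ratios below 1. These were 0.739 for Ptpn2 (95% interval 0.655 to 0.834) and 0.901 for Pias1 (0.792 to 1.02).

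Genes of the H2 region lay on both sides of 0. The stretch of chromosome 17 from the first to the last gene with an H2 symbol spans 3.51 Mb and holds 319 genes, of which 45 have an H2 symbol. Of these 45, 28 had no count in either library and 10 were measured. The 8 measured class I heavy chain genes had a median log2 ratio of 0.19 with 1 called higher and 0 lower. Besides the 5 described above, they were H2-T24, H2-M3 and the pseudogene H2-K2. H2-M3, which presents N-formylated peptides, was 1.42-fold lower in PKCi (143 counts, against 204 in CON, 95% interval 1.15 to 1.78), and H2-T24 had 50 counts in PKCi and 28 in CON (1.79-fold, 95% interval 1.10 to 2.95). H2-K2 had 19 counts in PKCi and 20 in CON, and H2-Q7 had 0 counts in both libraries. The 71 measured genes of the stretch that are neither class I nor class II had a median of 0.08, with 6 called higher and 3 lower. Over all 12273 measured genes 6.53% were called higher and 5.13% lower. The largest ratio among the 71 belonged to Ier3, an early response gene (log2 ratio 3.66). Next came the noncoding gene 4833427F10Rik (2.21, from 77 counts in PKCi and 4 in CON), which passed the filter only through the PKCi library. Both were named after their values were seen, as were Atat1 (1.52) and Tcf19 (−1.22).

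**Figure D4:**
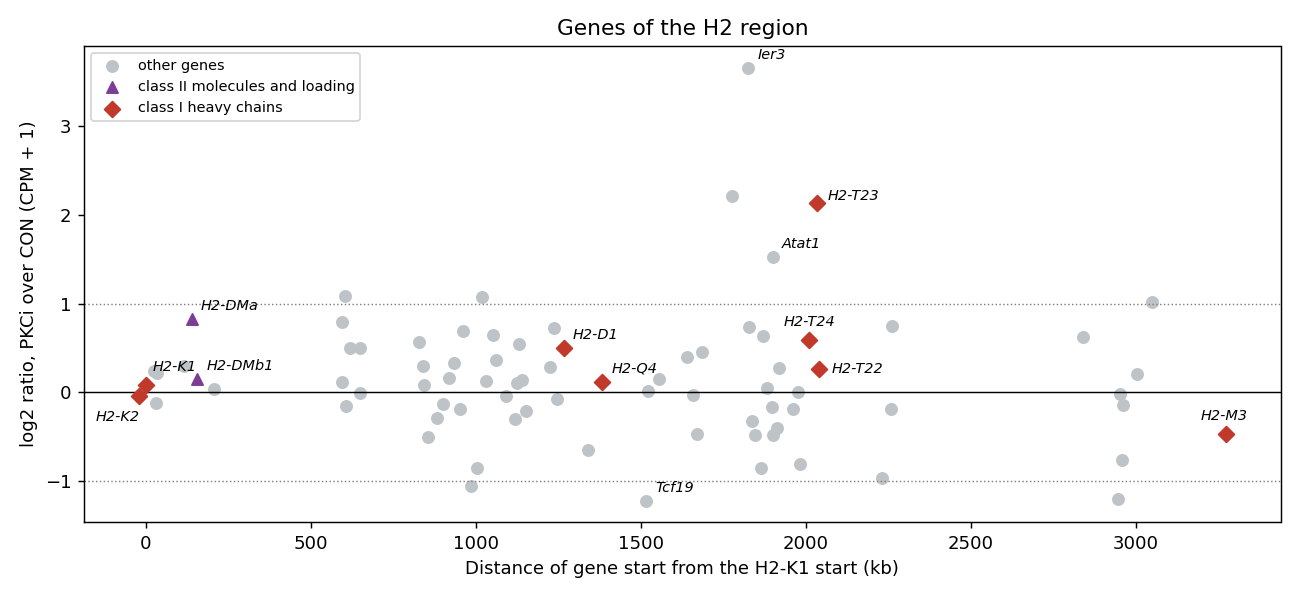
The log2 ratio of PKCi over CON, on the CPM + 1 scale, of the measured genes of the H2 region against the distance of their start from the H2-K1 start in kb, 1 library per group. Class I heavy chains (red diamonds) lie among the other genes (grey), with H2-T23 at 2.13 and H2-M3 at −0.47.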

How the data were processed

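RNA was sequenced in 1 PKCi and 1 CON library, grouped by the treatment in the labels. Per the labels' protocols, stranded poly(A) libraries gave paired-end reads. The submitters' processing notes name HISAT2 2.0.5 and GRCm38 (mm10). How reads were counted, and with which strand setting, is not given in the sources used here. Whole-number counts per gene were what the authors deposited, in a table whose name speaks of FPKM. The values were used as raw counts, since the columns are whole numbers with unequal totals. Per-sample columns left unassigned numbered 0. Positions matched those of GENCODE M21 for 8 of the 10 genes.

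Counts were scaled to CPM. Genes reaching 1 CPM in PKCi or CON were kept, and the log2 ratio used a pseudocount of 1 CPM. With 1 library per group there was no test. Folds have exact conditional binomial (Clopper-Pearson) 95% intervals, which cover counting error only. The labels name no molecular identifiers, so reads may be copies of 1 molecule. TPM used the gene lengths in the deposited table. The calls and intervals were tried on simulated counts that held counting error only. That trial cannot show how they fare with the spread between libraries. The 10 genes, the lists and the motifs were chosen with earlier results of these data known. Named genes were the 10, the up to 4 measured genes in each list whose log2 ratio was farthest from 0, and some fixed names; some of these are given only within counts, and 1 is not reported here. Psmb7, Psme1, Psme3, Rfxank, Rfxap, Ezh2, Suz12, Eed, Ganab, Prkcsh, Ptpn2, Pias1, Bst2, Ifng, some epithelial markers and the neighbours of the H2 region were chosen after their values were seen. Protein sequences of the 10 were planned for comparison and are not analysed here. Alternatives covered the pseudocount, the filter and the scaling. Python 3.11.15, SciPy 1.17.1, pandas 2.3.3 and edgeR 4.0.16 (TMM factors only) were used.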

Additional observations from a re-analysis of the deposited data

How the results depend on the processing

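The log2 ratios of the 10 genes were recomputed under 8 other settings and 1 more, TPM with transcript lengths, added after seeing the data. Wherever a gene was measured, its ratio stayed above 0. H2-T23 ranged from 1.81 to 2.18, Tapbp from 1.64 to 1.71 and Tapbpl from 1.28 to 1.63, called in all 9. Nlrc5 ranged from 0.50 to 1.76 and was called in 5 of the 7 settings that measured it. B2m ranged from 0.81 to 0.85, H2-D1 from 0.49 to 0.52 and H2-K1 from 0.07 to 0.10, called in 0. No scaling moved the median of all genes by more than 0.1. With a pseudocount of 5 the genes called over all were 449 higher and 324 lower, the class I regulators called higher were 2, and the interferon-induced genes called were 2 higher and 1 lower. With a filter of 5 CPM the interferon-induced genes called lower were 1. In TPM the genes called over all were 1398 higher and 985 lower, and with transcript lengths 1259 were higher. Among class II genes 1 was called higher with a pseudocount of 0.5 and 1 in TPM. The median of the interferon-induced genes, 0.46, was 0.22 with a pseudocount of 5, 0.08 with no filter, 0.99 with a filter of 5 CPM and 0.26 with a library total that leaves out mitochondrial and top genes. The class II median, 0.49, was 0.22, 0.32 and 0.27 with that pseudocount, no filter and that total. The median of the regulators with Nlrc5, 0.16, was 0.24 with no filter, 0.03 with a filter of 5 CPM, 0.08 in TPM and 0.05 with transcript lengths. With no filter the heavy chain median was 0.12 and that of peptide generation −0.14. No paired analysis was possible because each group has 1 library. Low counts leave wide intervals for H2-Q4, H2-K2, H2-T24, Tap1, Tap2, Nlrc5 and Prdm1, among others.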

Other observations

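Class II genes were close to silent in both libraries. Of 12 listed genes 8 had no count in either, the class II chains H2-Aa, H2-Ab1 and H2-Eb1 among them, and only the peptide-exchange genes H2-DMa (48 counts in PKCi and 20 in CON) and H2-DMb1 (57 counts in PKCi and 50 in CON) were measured. Class I-like genes outside the H2 region had 4 measured members and 0 called: Mr1, which presents vitamin B metabolites, was at 19.7 CPM in PKCi and 13.4 CPM in CON, and Fcgrt, the neonatal Fc receptor, at 15.8 CPM in PKCi and 11.2 CPM in CON. Procr, the protein C receptor, was at 4.85 CPM in PKCi and 3.42 CPM in CON, and Hfe, a regulator of iron uptake, at 12.2 CPM in PKCi and 15.7 CPM in CON. Of 8 measured genes of class I surface turnover 0 were called. Tmem127, an adaptor in the degradation of class I molecules, was 1.85-fold higher in PKCi (89.4 CPM, against 48.3 CPM in CON).

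Interferon-induced genes lay on both sides of 0. Of 14 measured, 4 were at least 2-fold higher in PKCi and 2 lower. The 4 include Irf1, also counted above among the class I regulators. Over all measured genes 6.53% were called higher and 5.13% lower. The median of the list was 0.46, and it moved with the settings, between 0.08 with no filter and 0.99 with a filter of 5 CPM. Gbp2, a guanylate-binding protein gene, was at 106 CPM in PKCi and 10.8 CPM in CON, and Parp14 at 17.0 CPM in PKCi and 2.98 CPM in CON. Ifit2 had 14 counts in PKCi and 65 in CON, 4.64-fold lower in PKCi, and passed the filter only through the CON library. Bst2, tetherin, was at 19.4 CPM in PKCi and 44.1 CPM in CON. Also on this list, Tap1 had 16 counts in PKCi and 15 in CON, and Psmb9 had 0 counts in both.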
